A study of Mus musculus with 8 samples.

Results

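The glucocorticoid system of the hippocampus was examined through 10 genes: the receptors Nr3c1 and Nr3c2, the steroid-activating enzyme gene Hsd11b1, and 7 genes that glucocorticoids induce (Fkbp5, Sgk1, Tsc22d3, Zbtb16, Errfi1, Sult1a1 and Klf9, called the targets here). They were picked by name for their roles, with earlier results of these data known, and all 10 were found among the 21368 genes that the array probes name and the 16620 that were tested. The hippocampi came from 8 female mice on a C57BL/6J background, all without the transgenes of the APPswe695/PSEN1dE9 line from which they were bred, with 1 array for each mouse. The 4 Hydroxyurea mice drank water with hydroxyurea, an inhibitor of ribonucleotide reductase, at a dose of 45 mg/kg/day over 10 weeks, beginning at 9 to 14 weeks of age. At the end Hydroxyurea 1 and 2 had an age of 24 weeks, while Hydroxyurea 3 and 4 and the 4 untreated Control mice had an age of 19 weeks. No Control mouse was 24 weeks old, no mouse carried the Alzheimer's disease transgenes, and the labels give neither corticosterone levels nor the time of day of dissection. The comparison asks whether expression in the hippocampus of treated mice differed from that of untreated ones.

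Glucocorticoids, mainly corticosterone in mice, leave the adrenal gland in a daily rhythm and in bursts during stress. In the brain they bind the mineralocorticoid receptor, encoded by Nr3c2, which has the higher affinity and is abundant in hippocampal neurons, and the glucocorticoid receptor, encoded by Nr3c1, which is found in most cell types. The bound receptor enters the nucleus and, at many induced genes, binds a DNA element made of mirrored half-sites. Hippocampal tissue holds neurons, glia and vessel cells, and how much each adds to the signal of a target was not measured. In such bulk tissue fewer cells of a type and less RNA per cell cannot be told apart.

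The element can be seen in the sequence before 1 of these genes. RefSeq start-site windows (GRCm38.p6, 250 bases before to 50 after a gene start) were held for 8 of the 10 genes, 16 windows in all, and were searched on both strands for the mirrored element, AGAACA followed after 3 bases of any kind by TGTTCT, and for its half-site AGAACA or TGTTCT, which the full element contains. Of these 16 windows, 1 held the full element and 5 held a half-site, against 3 (0.00913%) and 6233 (19.0%) of the 32851 windows of all genes. No window was held for Nr3c1 and Zbtb16. The windows below, 1 each for Sgk1, Sult1a1 and Tsc22d3, were picked because they hold a half-site. Sgk1 had further windows with and without a half-site, and Tsc22d3 further windows without one, which are not shown. Capitals mark half-sites, and in Sgk1 the pair that begins 189 and 180 bases before the start forms the full element. Whether these sites bear on the values by mouse was not tested. A match describes the letters only, and which start each array probe reports is not known.
Sgk1, chr10:21993640-21993939, + strand: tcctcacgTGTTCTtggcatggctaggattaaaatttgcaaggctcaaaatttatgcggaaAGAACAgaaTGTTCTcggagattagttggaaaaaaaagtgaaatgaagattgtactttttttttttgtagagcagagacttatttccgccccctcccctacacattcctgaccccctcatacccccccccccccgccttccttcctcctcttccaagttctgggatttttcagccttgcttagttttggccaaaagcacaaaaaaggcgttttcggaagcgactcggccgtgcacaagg
Sult1a1, chr7:126676369-126676668, - strand: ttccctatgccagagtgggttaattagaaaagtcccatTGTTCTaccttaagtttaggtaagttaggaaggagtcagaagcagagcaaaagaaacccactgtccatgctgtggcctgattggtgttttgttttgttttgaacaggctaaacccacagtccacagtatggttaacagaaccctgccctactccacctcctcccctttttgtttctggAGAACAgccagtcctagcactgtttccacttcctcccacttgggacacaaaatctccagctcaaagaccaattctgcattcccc
Tsc22d3, chrX:140600473-140600772, - strand: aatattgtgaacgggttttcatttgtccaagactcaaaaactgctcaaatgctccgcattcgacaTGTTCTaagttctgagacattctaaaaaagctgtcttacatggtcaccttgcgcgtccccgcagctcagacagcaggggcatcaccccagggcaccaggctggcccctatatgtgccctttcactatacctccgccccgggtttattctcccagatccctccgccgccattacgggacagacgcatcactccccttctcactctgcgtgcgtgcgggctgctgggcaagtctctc

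Values are log2 of an array's processed signal minus log2 of the 75th percentile of that array, so that 0 marks that percentile; they compare mice for 1 probe and not 1 gene with another. Before the results, 4 arrays or mice need mention. Control 1 was the noisiest array, with a median variation of 12.6% between replicate spots, against 3.69% to 4.44% on the other 7 arrays. Hydroxyurea 2 was the dimmest, with a 75th percentile of 1052, against 1680 to 2162 on the other Hydroxyurea arrays and 1677 to 2417 on the Control arrays. Control 3 and Hydroxyurea 4 differed from the other mice in several of the genes below. All 8 hippocampal neuron markers, among them Wfs1 of CA1 cells, were well above background on all 8 arrays. All 12 probes of the 10 genes were well above background on all 8 arrays as well. No gene, of these or of all tested, passed the threshold between treated and untreated mice (limma, Benjamini-Hochberg adjusted p under 0.05; 0% of genes).

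The glucocorticoid receptor gene Nr3c1 had 4.03, 3.95, 4.10 and 3.92 in Hydroxyurea 1 to 4, against 4.20, 4.04, 3.95 and 4.14 in Control 1 to 4. The groups overlapped, and all 8 mice lay within 0.28 of each other. The log2 difference was -0.08 ± 0.08 (Hydroxyurea minus Control; SE, n = 4 per group; limma adjusted p = 0.732), with a 95% interval from -0.26 to 0.09. A dimmer second Nr3c1 probe had -1.40, -1.32, -1.23 and -1.82 in Hydroxyurea mice, against -0.88, -1.46, -1.72 and -1.41 in Control mice, a difference of -0.08 ± 0.20. On both probes Control 1 was the highest mouse and Hydroxyurea 4 the lowest.

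The mineralocorticoid receptor gene Nr3c2 varied more than the bright Nr3c1 probe did. Its probe was dim, like the second Nr3c1 probe, which spanned -1.82 to -0.88 over the 8 mice. Nr3c2 had -1.50, -0.93, -1.55 and -2.17 in Hydroxyurea 1 to 4, against -1.30, -1.46, -2.31 and -1.38 in Control 1 to 4. One mouse of each group, Hydroxyurea 4 and Control 3, lay below the other 6, which spanned -1.55 to -0.93. The difference between groups was 0.08 ± 0.30 (SE, n = 4 per group; limma adjusted p = 0.946), with an interval from -0.62 to 0.78 that does not exclude a 1.5-fold change in either direction. It was -0.16 without Control 3 and 0.29 without Hydroxyurea 4. The score of the 8 hippocampal neuron markers, the mean log2 deviation from each gene's mean over the mice, was lowest in the same pair of mice: -0.24 in Hydroxyurea 4 and -0.30 in Control 3, against -0.04 to 0.17 in the other Hydroxyurea mice and 0.10 to 0.19 in the other Control mice. Not all of these markers were low in both mice. Wfs1 had 4.10 in Hydroxyurea 4 and 3.99 in Control 3, against 3.54 to 4.24 over all 8 mice. Grik4 was lowest of the 8 mice in Hydroxyurea 4 (2.94) but had 3.43 in Control 3. The summed level of the 8 markers was 54.6 to 64.2 in Hydroxyurea and 52.2 to 64.5 in Control mice, in units of the array's 75th percentile. Their part in the Nr3c2 values was not tested.

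Hsd11b1 encodes the enzyme that regenerates active corticosterone from its inert 11-keto form inside cells. It had 2.21, 2.31, 2.24 and 2.16 in Hydroxyurea 1 to 4, against 2.45, 2.12, 1.92 and 2.41 in Control 1 to 4. All Hydroxyurea values lay inside the Control range, with Control 3 the lowest mouse. The difference was 0.0031 ± 0.12 (SE, n = 4 per group; limma adjusted p = 0.996), with an interval from -0.28 to 0.28.

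**Figure D1:**
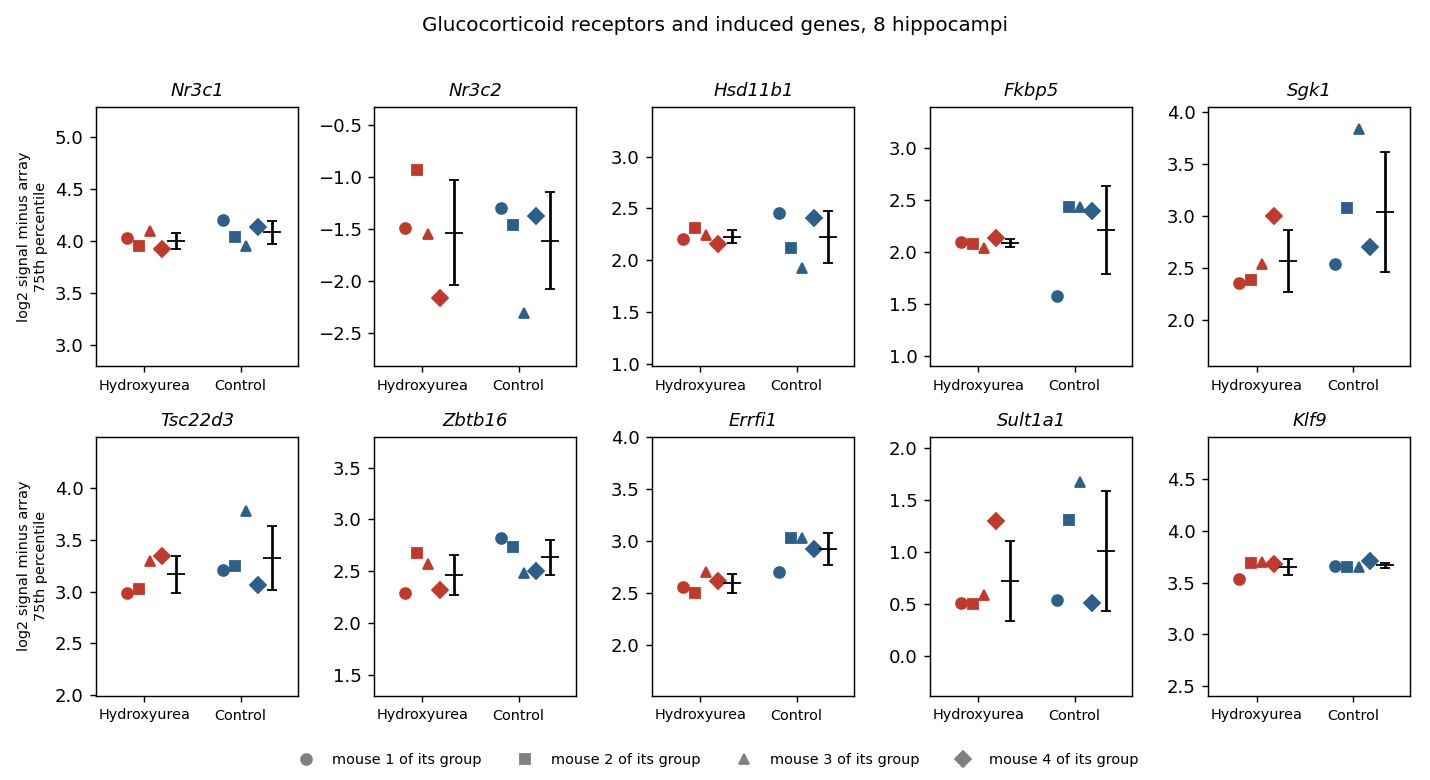
Scaled log2 signal (log2 signal minus log2 of the array's 75th percentile, y axis, 2.5 log2 units tall in every panel) of 10 genes in Hydroxyurea (red) and Control (blue) mice; marker shapes give the replicate number within a group, and bars show the mean and SD of 4 mice. Errfi1 is the gene whose groups do not overlap; in the Sgk1, Tsc22d3 and Sult1a1 panels Control 3 (blue triangle) is the highest mouse, and in the Fkbp5 panel Control 1 (blue circle) is the lowest.

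Of the 7 targets, 7 had a difference below 0, with a median of -0.17, against a median of -0.0038 over all genes tested and 51.3% of them below 0. The targets were listed with earlier results of these data known, so this count is a description. With a limma p under 0.05 before adjustment there was 1 of the 7 targets and 1 of the 10 genes, Errfi1, against 9.89% of all genes, 6.36% lower and 3.53% higher. The groups did not overlap for Errfi1 alone, against 7.5% of all genes, 5.11% lower and 2.38% higher. Across the other scalings and subsets of mice that were tried, 6 or 7 of the 7 targets stayed below 0.

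Errfi1 (Mig-6), an induced inhibitor of the EGF receptor, had 2.56, 2.50, 2.71 and 2.62 in Hydroxyurea 1 to 4, against 2.71, 3.03, 3.03 and 2.92 in Control 1 to 4. The highest treated mouse, Hydroxyurea 3, and the lowest untreated mouse, Control 1, had the same value to 2 decimals, so the groups touched without crossing. The difference was -0.33 ± 0.09 (SE, n = 4 per group), a 1.26-fold lower signal, with a limma p of 0.00655 before and 0.452 after adjustment. The exact two-sided permutation p of this gene was 0.0286, the smallest that 4 against 4 mice allow. Leaving out 1 mouse gave differences from -0.40 to -0.29.

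Fkbp5 encodes a co-chaperone that lowers the receptor's affinity for its hormone and is among the most used readouts of receptor activity. It had 2.10, 2.08, 2.04 and 2.13 in Hydroxyurea 1 to 4, against 1.58, 2.43, 2.44 and 2.40 in Control 1 to 4. The treated mice lay close together, below Control 2 to 4 and above Control 1, the mouse with the noisiest array. The difference was -0.12 ± 0.19 (SE, n = 4 per group; limma adjusted p = 0.841). In the fit without Control 1, 15.2% of all genes had a limma p under 0.05 before adjustment. The difference was then -0.33, with such a p before adjustment and 0.231 after. Each of the other Control mice moved it the other way, to -0.05 without Control 2, -0.05 without Control 3 and -0.06 without Control 4.

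Sgk1, a kinase induced by both receptors that regulates ion channels and transporters, had 2.351, 2.383, 2.535 and 2.999 in Hydroxyurea 1 to 4, against 2.534, 3.077, 3.836 and 2.698 in Control 1 to 4. Control 3 stood 0.76 log2 (1.69-fold) above the next highest mouse. The difference was -0.47 ± 0.29 (SE, n = 4 per group; limma adjusted p = 0.597) and -0.20 without Control 3. Its SD over the 8 mice exceeded that of 92.7% of genes tested.

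Tsc22d3 (GILZ), an induced leucine zipper protein that restrains NF-kB and AP-1, had 2.99, 3.03, 3.30 and 3.35 in Hydroxyurea 1 to 4, against 3.21, 3.25, 3.77 and 3.07 in Control 1 to 4. Control 3 was again the highest mouse, and the groups overlapped. The difference, -0.16 ± 0.16 (SE, n = 4 each; limma adjusted p = 0.756), was -0.0097 without Control 3.

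Sult1a1, a sulfotransferase of phenols and catecholamines, fell into separate sets of mice that did not follow the groups. It had 0.51, 0.49 and 0.58 in Hydroxyurea 1 to 3 and 1.30 in Hydroxyurea 4, against 0.54 and 0.50 in Control 1 and 4 and 1.31 and 1.67 in Control 2 and 3. A second Sult1a1 probe had 0.52, 0.35, 0.46 and 1.26 in Hydroxyurea 1 to 4, against 0.53, 1.17, 1.64 and 0.41 in Control 1 to 4, so both probes placed the same 3 mice above the other 5. The difference was -0.29 ± 0.31 (SE, n = 4 per group; limma adjusted p = 0.766), and -0.06 without Control 3.

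Zbtb16 (PLZF), a zinc finger repressor, had 2.29, 2.67, 2.57 and 2.32 in Hydroxyurea 1 to 4, against 2.82, 2.73, 2.48 and 2.50 in Control 1 to 4. Here Control 3 was not high, and the lowest mice were Hydroxyurea 1 and 4. The difference was -0.17 ± 0.12 (SE, n = 4 per group; limma adjusted p = 0.646).

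Klf9, a Krüppel-like transcription factor induced in neurons by corticosterone and by thyroid hormone, was nearly flat. It had 3.53, 3.68, 3.70 and 3.67 in Hydroxyurea 1 to 4, against 3.66, 3.65, 3.65 and 3.70 in Control 1 to 4. Its SD over the 8 mice exceeded that of only 2.46% of genes tested, and the difference was -0.02 ± 0.06 (SE, n = 4 per group; limma adjusted p = 0.934), with an interval from -0.15 to 0.12. For 7 of the 10 genes the 95% interval excluded a 1.5-fold change in either direction, as for 77.7% of all genes; the exceptions were Nr3c2, Sgk1 and Sult1a1.

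Receptors were then set against the other 8 genes mouse by mouse, 16 relations in all. None passed an adjusted p of 0.05 by Pearson's r or Spearman's rho (exact two-sided permutation tests over 8 mice, Benjamini-Hochberg over 16), while 5 had a Pearson p under 0.05 before adjustment, 4 of them with Nr3c2. The values of Nr3c2 ran against those of Tsc22d3, with r = -0.82 (exact permutation p = 0.00722, adjusted 0.0831) and rho = -0.74 (exact p = 0.0458, adjusted 0.230). They ran against those of Sgk1 with r = -0.80 (exact p = 0.0156, adjusted 0.0831) and rho = -0.57 (exact p = 0.151, adjusted 0.346). With Hsd11b1 they ran in the same direction, at r = 0.75 (exact p = 0.0306, adjusted 0.123) and rho = 0.76 (exact p = 0.0368, adjusted 0.230).

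These relations weakened without the 2 mice farthest from the Nr3c2 median, Control 3 and Hydroxyurea 4. Without them r was -0.44 for Tsc22d3, -0.34 for Sgk1 and 0.38 for Hsd11b1. Without Control 3 alone 0 of 16 relations had an exact permutation p under 0.05 even before adjustment, and r with Sgk1 was -0.60. Without Hydroxyurea 4 alone 4 relations had such a p, and r with Sgk1 was -0.85. No coefficient is given for Sult1a1, because its 3 high and 5 low mice form separate sets that are each too small; the lowest Nr3c2 values, in Control 3 and Hydroxyurea 4, went with high Sult1a1, while Control 2, also high in Sult1a1, had an Nr3c2 value of -1.46 among the other mice. Groups of 4 mice are too few for a correlation within a group. With each value taken as its difference from the group mean and permuted within groups, 3 relations passed: Nr3c2 with Sgk1 (r = -0.88, exact permutation p adjusted 0.0370), with Hsd11b1 (r = 0.75, adjusted 0.0278) and with Sult1a1. In this form, too, Control 3 and Hydroxyurea 4 hold the lowest Nr3c2 values of their groups.

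For Nr3c1 the smallest p was that with Hsd11b1 (r = 0.71, exact permutation p = 0.0467, adjusted 0.149; rho = 0.71, exact p = 0.0576, adjusted 0.230), at r = 0.60 without Control 1 and Hydroxyurea 4. Against the targets other than Sult1a1 its r lay between -0.47 for Fkbp5 and 0.51 for Zbtb16 (exact permutation p = 0.196, adjusted 0.392). Fkbp5, the co-chaperone gene, had r = -0.47 with Nr3c1 (exact permutation p = 0.254, adjusted 0.451; rho = -0.45, exact p = 0.268, adjusted 0.476), which was 0.03 without Control 1 and Hydroxyurea 4.

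**Figure D2:**
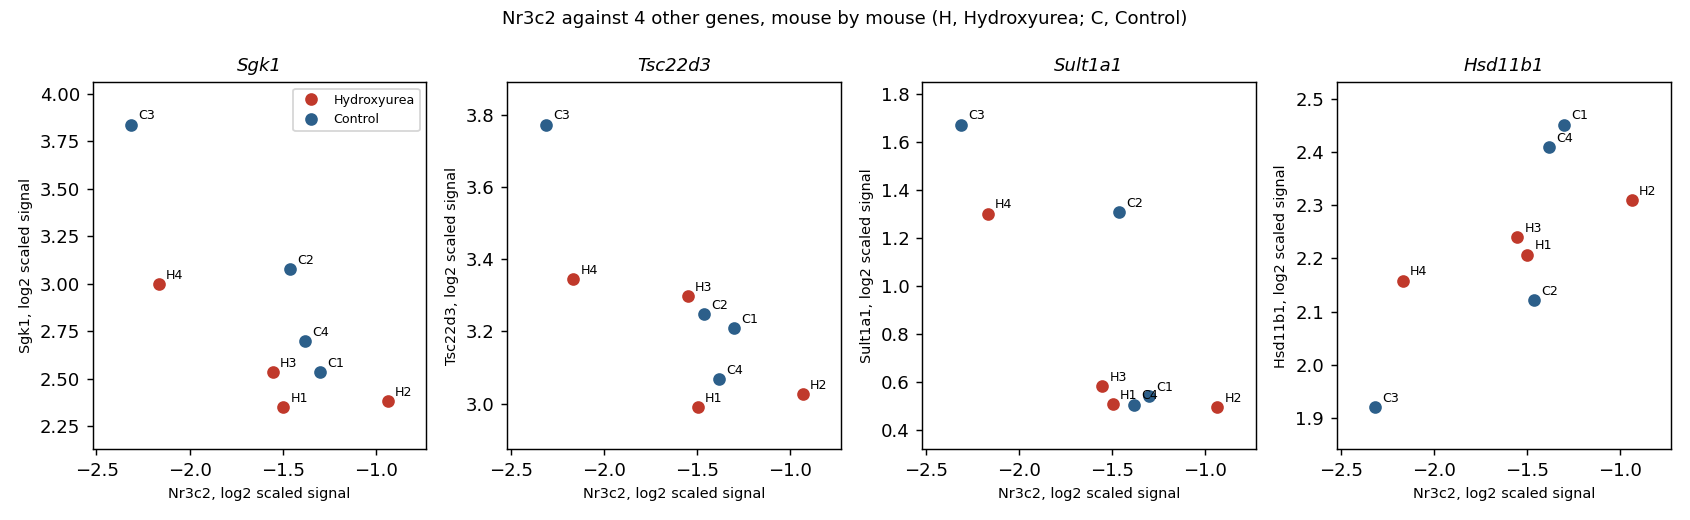
Scaled log2 signal of Nr3c2 (x axis) against Sgk1, Tsc22d3, Sult1a1 and Hsd11b1 (y axes) in each of 8 mice, with Hydroxyurea mice in red (H) and Control mice in blue (C), numbered by replicate. Control 3 and Hydroxyurea 4 lie apart at the left of every panel, and the other 6 mice span -1.55 to -0.93 on the x axis.

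The targets did not vary as 1 group. The other 29 pairs of the 10 genes were examined after the values had been seen. By exact permutation 4 of them had an adjusted p under 0.05 with Pearson's r, and 0 with rho. These were Sult1a1 with Sgk1, Tsc22d3 and Hsd11b1, for which no coefficient is given, and Sgk1 with Tsc22d3. The latter pair had r = 0.91 (exact permutation p = 0.00677, adjusted over 29 pairs 0.0491) and rho = 0.83 (exact p = 0.0154, adjusted 0.158). Its r was 0.70 without Control 3 and Control 2. Sgk1 and Errfi1 had r = 0.74 (exact p = 0.0230, adjusted 0.111) and rho = 0.81 (exact p = 0.0218, adjusted 0.158), with r = 0.36 without the same mice. Hsd11b1 ran against Sgk1 at r = -0.80 (exact p = 0.0187, adjusted 0.108) and rho = -0.64 (exact p = 0.0962, adjusted 0.310), with r = -0.49 without Control 3 and Control 1. Fkbp5 and Sgk1 had r = 0.59 (exact p = 0.132, adjusted 0.318) and rho = 0.76 (exact p = 0.0368, adjusted 0.178). Without Control 1 and Control 3 r was 0.63. Fkbp5 and Errfi1 had r = 0.62 (exact p = 0.0938, adjusted 0.318), and 0.91 without those mice. With Tsc22d3, Fkbp5 had r = 0.30 (exact p = 0.425), and 0.02 without them. Zbtb16 and Klf9 had an adjusted p of 0.580 or more with every other target by Pearson's r. Sgk1 and Sult1a1 shared their 3 highest mice, Control 3, Control 2 and Hydroxyurea 4.

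Counted by mouse, Control 3 was the highest of the 8 mice for 5 of the 7 targets, although for Errfi1 and Fkbp5 it exceeded Control 2 by 0.0018 and 0.0024 log2 only. Hydroxyurea 1 was the lowest mouse for 4 targets. Over all genes Control 3 was the highest mouse for 17.7% and Hydroxyurea 1 the lowest for 7.87%. The mean deviation of the 7 targets was -0.24, -0.17, -0.08 and 0.05 in Hydroxyurea 1 to 4, against -0.14, 0.21, 0.41 and -0.03 in Control 1 to 4, so the groups overlapped. Its difference between the groups was -0.22, and -0.12 without Control 3; the median difference of the 7 targets was then -0.06.

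A further 24 genes that glucocorticoids are known to induce in brain or other tissues were tested, from a list of 25. None passed the threshold; 20 had a difference below 0 and 4 above, with a median of -0.14. The split was 23 below to 1 above with median centring, which moved the median of all genes down to -0.0859. In the deposited value table it was 16 to 7, with 1 at 0. With a limma p under 0.05 before adjustment there were 3 (12.5%), all lower, against 9.89% of all genes, 6.36% lower. The CCAAT/enhancer-binding factor gene Cebpd had -0.36 ± 0.11, the repressor gene Bcl6 -0.31 ± 0.10 and the glycerol phosphate dehydrogenase gene Gpd1 -0.16 ± 0.07 (SE, n = 4 per group; limma adjusted p = 0.472, 0.476 and 0.494). The lysolipid transporter gene Mfsd2a had -0.33 ± 0.17 and the NF-kB inhibitor gene Nfkbia -0.25 ± 0.13. Bcl6 and Gpd1 had groups that did not overlap, as 7.5% of all genes did.

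Other well known induced genes did not pass the threshold either. The clock gene Per1 had -0.09 ± 0.09, the MAP kinase phosphatase gene Dusp1 -0.22 ± 0.13 and the mTOR inhibitor gene Ddit4 -0.08 ± 0.26 (SE, n = 4 per group; limma adjusted p = 0.762, 0.605 and 0.933). The metallothionein genes Mt1 and Mt2, whose products bind zinc and copper, had 0.01 ± 0.16 and 0.06 ± 0.15, and the cell cycle inhibitor gene Cdkn1a had -0.0075 ± 0.17. Ddit4 had 4.19, 4.42, 4.40 and 4.38 in Hydroxyurea 1 to 4, against 3.60, 4.68, 4.93 and 4.51 in Control 1 to 4. As for Fkbp5, the treated mice lay above Control 1 and below the other Control mice.

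**Figure D3:**
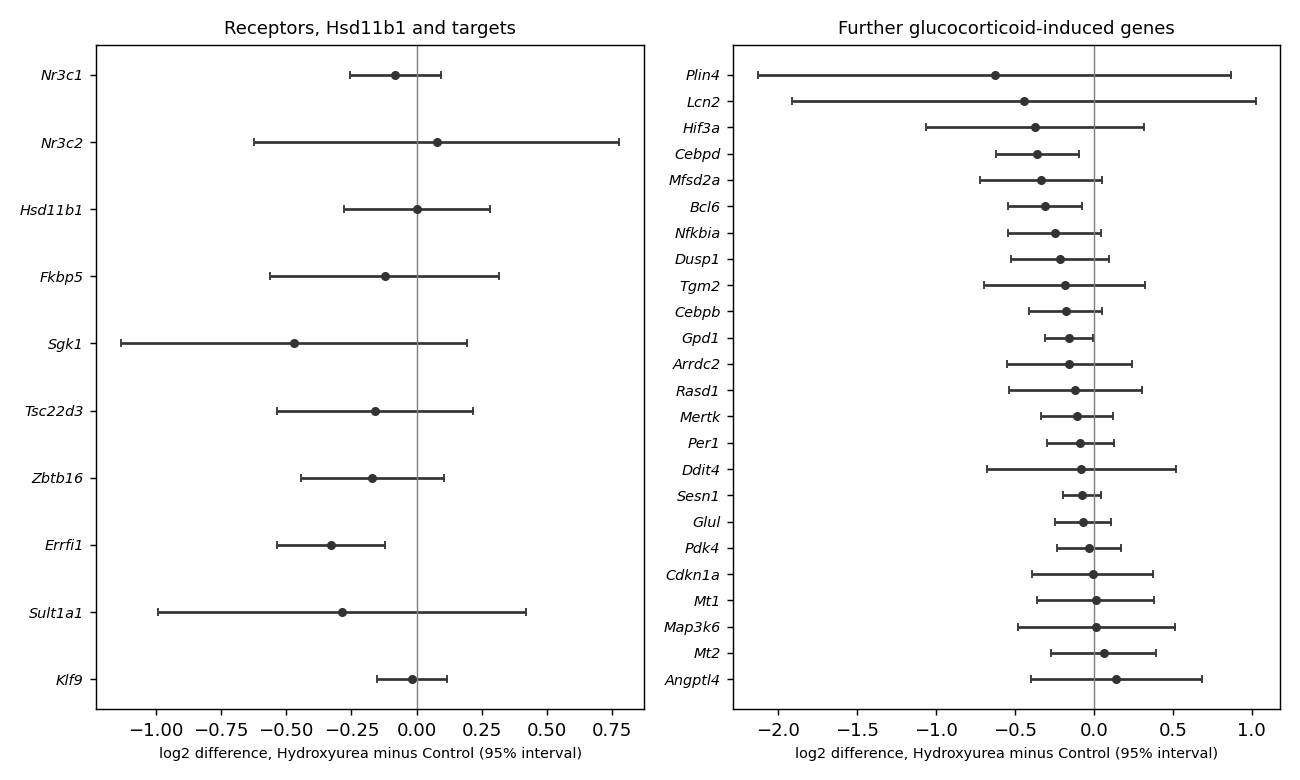
Log2 difference between Hydroxyurea and Control mice (x axis, Hydroxyurea minus Control) with its 95% interval from the limma fit, for the 10 genes (left) and 24 further induced genes (right), 4 mice per group. Points left of 0 are lower in Hydroxyurea mice; the intervals are widest for Plin4 and Lcn2.

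Control 3 stood out in this list too, as the highest mouse for 14 of the 24 genes. Lcn2, the lipocalin that binds bacterial siderophores, had -2.55, -2.14, -2.30 and -1.63 in Hydroxyurea 1 to 4, against -2.42, -2.21, 0.39 and -2.59 in Control 1 to 4. Control 3 was 4.06-fold above the next highest mouse, Hydroxyurea 4. Plin4, a lipid droplet coat protein, had -2.43, -3.05, -2.24 and -0.91 in Hydroxyurea mice, against -1.83, -1.78, 0.15 and -2.66 in Control mice, with Control 3 2.09-fold above Hydroxyurea 4. Lcn2 and Plin4 were picked after their values had been seen. Without Control 3 the list had 17 of 24 genes below 0 and a median of -0.07, where 52.7% of all genes were below 0.

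The score of the further list was -0.20, -0.09, -0.10 and 0.07 in Hydroxyurea 1 to 4, against -0.05, 0.04, 0.43 and -0.08 in Control 1 to 4. Hydroxyurea 4 was the highest treated mouse and Control 3 the highest untreated one, as for the 7 targets. Both mice also had the highest choroid plexus score of their group, 2.73 in Hydroxyurea 4 and 0.90 in Control 3, against -1.28 to 0.96 in the other Hydroxyurea mice and -2.19 to -0.28 in the other Control mice. All 8 choroid plexus markers were above background on every array, with a summed level of 17.6 to 216 in Hydroxyurea and 8.23 to 105 in Control mice, in units of the array's 75th percentile; Ttr, transthyretin, had a difference of 1.30 ± 1.03. Control 2, the second highest mouse for Sgk1 and Sult1a1, had a choroid plexus score of -1.05. The score of 8 endothelial markers was highest in the same pair, 0.07 in Hydroxyurea 4 and 0.17 in Control 3, against -0.11 to 0.05 in the other Hydroxyurea mice and -0.15 to 0.04 in the other Control mice, with a summed level of 22.2 to 28.6 in Hydroxyurea and 22.6 to 34.3 in Control mice. The endothelial markers did not move together. Of the 8 mice, Flt1 was highest in Control 3 (2.87) and lowest in Hydroxyurea 4 (2.07). Tek was lower in Control 3 (-2.58) than in the other Control mice. Oligodendrocyte marker scores were 0.26 in Hydroxyurea 4 and 0.06 in Control 3. Those of astrocytes were 0.01 and -0.05, and those of microglia -0.03 and -0.02. For none of these glial lists did both mice have the highest score of their group. The part of any cell type in the target values was not tested.

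**Figure D4:**
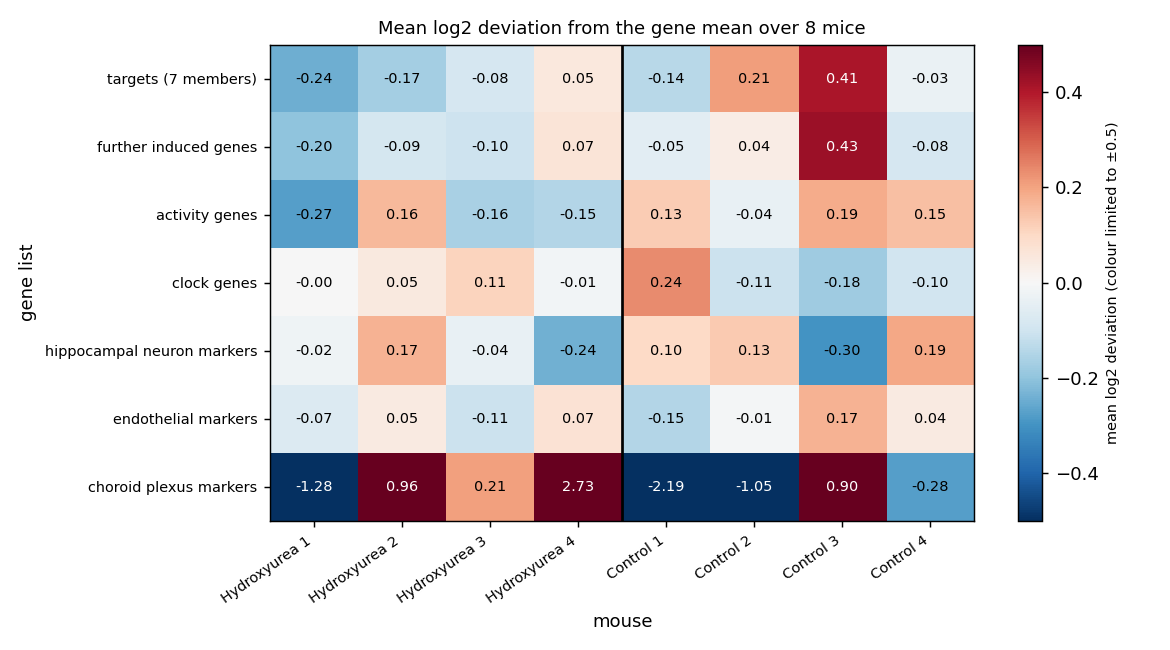
Mean log2 deviation from each gene's mean over the 8 mice (colour and printed value) for gene lists (rows) in each mouse (columns, Hydroxyurea left of the line and Control right). The upper rows, the 7 targets and 24 further induced genes, are highest in Control 3 (0.41 and 0.43); choroid plexus markers range from -2.19 to 2.73, beyond the colour scale.

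Some targets also respond to neuronal firing and to the clock, so those lists are given beside them. Of 12 activity genes, 10 had a difference below 0 (12 with median centring), with 4 at a limma p under 0.05 before adjustment, all lower, and 0 after. Over all genes 51.3% were below 0 and 6.36% were lower with such an unadjusted p, and with median centring the median of all genes was -0.0859. Dusp6 had -0.30 ± 0.09, Arc -0.48 ± 0.15, Egr1 -0.22 ± 0.09 and Nr4a1 -0.37 ± 0.15 (SE, n = 4 per group; limma adjusted p = 0.472, 0.472, 0.498 and 0.498). Their score was -0.27, 0.16, -0.16 and -0.15 in Hydroxyurea 1 to 4, against 0.13, -0.04, 0.19 and 0.15 in Control 1 to 4. Hydroxyurea 1 was lowest here and for the targets, whereas Control 2 was high for the targets and not for activity genes. Of 14 clock genes, 9 were above 0 and 5 below, against 7 and 7 with median centring, and 0 had an unadjusted p under 0.05. Ciart had 0.28 ± 0.13, Dbp 0.18 ± 0.11, Npas2 0.33 ± 0.20 and Bhlhe41 0.14 ± 0.09, and the score was highest in Control 1 (0.24) and lowest in Control 3 (-0.18). The part of either list in the target values was not tested.

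Of the receptor machinery, which covers chaperones, coregulators and the hormone axis, 20 genes were tested. There were 10 differences above 0 and 10 below, with a median of -0.0053. The split was 6 to 14 with median centring, where the median of all genes was -0.0859, and 13 to 7 in the deposited value table. With a limma p under 0.05 before adjustment there were 4 (20%, against 9.89% of all genes), and 0 after. Crh, corticotropin-releasing hormone, which hippocampal interneurons also make, had -1.24, -1.13, -1.18 and -1.05 in Hydroxyurea 1 to 4, against -0.78, -0.94, -0.88 and -0.93 in Control 1 to 4. The groups did not overlap, and the difference was -0.27 ± 0.07 (SE, n = 4 per group; limma adjusted p = 0.452). The coactivator genes Ncoa1 and Ncoa2 had -0.21 ± 0.06 and -0.15 ± 0.05, also without overlap (7.5% of all genes), and the chaperone organiser gene Stip1 had 0.17 ± 0.07 (limma adjusted p = 0.472, 0.477 and 0.496).

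Between treated mice of 24 and of 19 weeks, 0 of the 10 genes passed before or after adjustment, against 2.7% of all genes before it. Nr3c2 had a log2 difference of 0.64 ± 0.39 (24 minus 19 weeks; SE, n = 2 per age) and Sgk1 of -0.40 ± 0.41, with a limma adjusted p of 0.9999 for each. Sgk1 averaged 2.37 at 24 weeks and 2.77 at 19 weeks. Hydroxyurea 4, which had the highest Sgk1 and the lowest Nr3c2 of the treated mice, is 1 of the 2 treated mice of 19 weeks; the age at dissection and the age at which treatment began cannot be told apart.

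Over the 8 mice, the 5 genes that followed the mean deviation of the targets most closely were Kyat3 (r = 0.96), Gjb6 (0.96), Klf15 (0.96), Ndufb3 (0.95) and Mapre2 (0.95), chosen from all genes tested by Pearson's r as a description. Klf15, a Krüppel-like factor, had 0.10, -0.03, 0.29 and 0.54 in Hydroxyurea 1 to 4, against 0.12, 0.54, 0.92 and 0.31 in Control 1 to 4. Gjb6, connexin 30 of astrocyte gap junctions, had 3.14, 3.12, 3.31 and 3.61 in Hydroxyurea mice, against 3.35, 3.62, 3.91 and 3.34 in Control mice. In both genes, as in Kyat3, Control 3, Control 2 and Hydroxyurea 4 were the 3 highest mice. These mice were also highest in the target mean by which the genes were chosen, so this is no separate result. In Ndufb3 and Mapre2 Control 4 (4.92 and 5.19) exceeded Hydroxyurea 4 (4.90 and 5.13). Closest to Nr3c1 were Larp6 (r = 0.96), Mbtd1 (0.95), Pds5a (0.94), Nr6a1 (0.94) and Fam155a (0.94).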

How the data were processed

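RNA of 8 hippocampi was measured on 1-colour Agilent arrays of 1 slide, 200 ng of each in Cy3 per the labels' protocols. Per the file headers, Feature Extraction 12.0.3.1 made the deposited signal intensity of each spot, from which background had been subtracted; arrays had not been scaled to one another, and no spot was saturated. The authors' value table is, by recomputation to within 0.00502, a z score of log signal centred on the array mean, with column medians of -0.21 to -0.17. Control arrays filled one row of the slide and Hydroxyurea arrays the other, so row and treatment cannot be told apart.

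Of 55681 non-control probes, 28331 were named through the RefSeq accession of 1 gene (GRCm38.p6 table; the header's build is mm9, so no probe coordinates are given). Spots not marked as outliers were averaged, and the brightest probe stood for a gene. Genes well above background on at least 4 arrays and with at least 6 values were tested (lmFit and eBayes, limma 3.58.1, R 4.3.3, two-sided, Benjamini-Hochberg). On Hydroxyurea arrays 59.7% to 69% of probes were well above background and on Control arrays 62.1% to 76.7%; 4 mice per group limit precision. The genes and all lists were chosen with earlier results of these data known. Others named are up to 4 per list with the smallest p, the listed genes Per1, Dusp1, Ddit4, Mt1, Mt2, Cdkn1a, Nfkbia, Crh and Ttr whatever their p, and the 5 most like the targets or Nr3c1. The other settings tried were 4 scalings, other probe filters, age, array weights, a replicate block and leaving out mice. On simulated data for treatment (16586 genes) the fit called 46.3%, 74.6% and 89.4% of genes changed 1.5-, 2- and 3-fold, with 16 unchanged genes called. For age it called 19.4%, 53.7% and 59.1%, with 2 unchanged. The simulated noise was normal and independent between genes and mice, without shifts shared by a mouse or a noisier array. These shares therefore need not hold for the arrays here. Cages were shared by 2 to 4 mice, and which mice shared one is not given.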

Additional observations from a re-analysis of the deposited data

Results flagged for a closer look

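A mouse far from the other 3 of its group was found in 4 of 48 sets of 4 values (10 genes and 14 list scores in 2 groups), by Dixon's 95% critical value of 0.829; chance gives about 1 in 20. These were Sult1a1 in Hydroxyurea 4 (1.30), Klf9 in Hydroxyurea 1 (3.53), Nr3c2 in Control 3 (-2.31) and Fkbp5 in Control 1 (1.58). Their causes were not tested.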

How the results depend on the processing

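Under 20 other settings 0 of the 10 genes passed an adjusted p of 0.05 (limma). Errfi1 had an unadjusted p under 0.05 in each except with 19-week mice only, where 0 of the 10 genes and 6.64% of all genes did. Errfi1 and Fkbp5 both had such a p with array weights (19.6% of all genes) and without Control 1 (15.2%). So they did without Control 1 and Hydroxyurea 2 together (14%), a setting chosen after seeing the data. Leaving out 1 mouse gave 1 to 2 of the 10 genes, beside 6.68% to 15.2% of all genes. Of the 10 genes, those whose groups did not overlap numbered 0 in the deposited value table and 2 without Control 1 and Hydroxyurea 2. Without 1 mouse they numbered 1 to 2. The share of all genes without overlap is given only for the main setting with all 8 mice (7.5%). Groups of fewer mice overlap less often, so these counts cannot be read against it. Small differences changed sign, and the cause was not tested. Nr3c2 had -0.0050 with median centring, -0.24 with age as a covariate and in 19-week mice only, -0.048 with array weights, -0.019 without Control 1 and Hydroxyurea 2, and -0.16 to 0.29 without 1 mouse. Hsd11b1 had -0.079 with median centring, -0.034 with normexp, -0.026 with age and in 19-week mice, -0.0043 with array weights, and -0.098 to 0.078 without 1 mouse. Klf9 had 0.0072 with quantile normalization, 0.025 z score units in the value table, 0.022 with age and in 19-week mice, and -0.035 to 0.021 without 1 mouse; Nr3c1 had 0.0125 in the value table. Of the 16 receptor relations, 3 passed an adjusted p in the value table and as differences from the group mean, and 0 to 1 without 1 mouse (1 without Control 2). Before adjustment 3 passed with median centring, 9 in the value table, 1 without Control 1 and Hydroxyurea 2, and 0 to 5 without 1 mouse (0 without Control 3). Between ages 2 of the 10 genes passed before adjustment without Control 3, and 0 without any other Control mouse. The share of all genes is given only with all 8 mice (2.7%).

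Same-numbered mice deviated together weakly or not at all (r = 0.0528, 0.201, -0.211 and -0.058 over genes for numbers 1 to 4). The same-numbered mouse was the best match among the Control mice for Hydroxyurea 1 and 2, and not for Hydroxyurea 3 and 4. These coefficients are too few to decide whether the numbers pair the mice. With the replicate block 0 genes passed an adjusted p and 1 an unadjusted p, as did 7.93% of all genes.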
